A study of Mus musculus with 2 samples.

Results

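The 49 genes described here encode proteins of complement and of blood coagulation, with their inhibitors and receptors. They were taken as the rows of the deposited gene and transcript tables whose symbol is on a list of such genes. All 49 were found among 55450 annotated genes, 48 of them typed as protein-coding, and all 49 had at least 20 expected counts summed over both libraries. The list is a choice of named pathway genes and does not hold every gene of either pathway. The study measured total RNA by sequencing in adrenal glands of male mice of strain B6CASTF1/J at 14 days of age, in 2 libraries, which the labels call biological replicates 1 and 2; they form 1 group. The strain is a first-generation cross of C57BL/6J and CAST/EiJ, no treatment is given, and each library was started from 300 ng of RNA with ERCC spike-ins. The labels use the wording 3x Males for the pooled animals, give both libraries the same pool number in the sample descriptions and different numbers in the tissue descriptions, and name a single donor record, so the SD between replicates may or may not span separate animals.

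Complement is a set of plasma proteases and binding proteins that coat and lyse foreign or damaged cells. Its classical arm starts from antibody through C1, its lectin arm from mannose-binding lectins with their proteases, and both cut C4 and C2 to reach C3. The alternative arm amplifies C3 through factor B, and C5 to C9 then build a pore in the target membrane. Coagulation is a protease cascade that ends in thrombin and fibrin, is held back by serpins and by the protein C system, and is undone by plasmin. Hepatocytes make most of these plasma proteins, whereas the receptors, the membrane regulators and several factors come from endothelium, platelets, macrophages or other cells. The members were accordingly grouped by their textbook source into 38 made mainly in liver and 11 made mainly elsewhere.

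Sequencing depth was 32963248 expected counts in replicate 1 and 36260745 in replicate 2. Levels are given as TPM, transcript abundances scaled to transcript length and to a fixed total, so that genes can be compared with each other. The fold of a gene is its TPM in replicate 2 over its TPM in replicate 1, a gene over 2-fold apart is counted as differing, and a gene within 1.5-fold is called near equal. With 1 group of 2 libraries there is no test and no p-value, and the 95% exact binomial intervals given for folds cover counting error alone. Markers of the labelled tissue were abundant: 8 adrenal cortex genes summed to 6555 and 6966 TPM and 7 chromaffin cell genes to 1316 and 1347 TPM in replicates 1 and 2. The libraries stood apart in other markers. All 18 genes of a hepatocyte list were over 2-fold higher in replicate 2, with a sum of 451.6 against 7488 TPM, and all 9 genes of a lymphocyte list were over 2-fold higher in replicate 1, with a sum of 63.1 against 8.66 TPM.

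**Figure D1:**
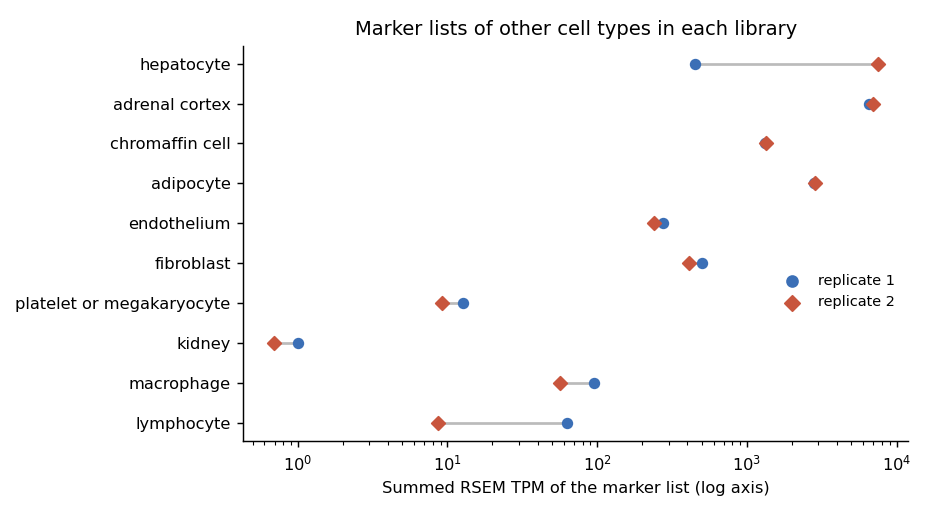
Summed RSEM TPM of 10 marker lists in each library, on a log axis, with a circle for replicate 1 and a diamond for replicate 2. The hepatocyte sum goes from 451.6 to 7488 TPM and the lymphocyte sum from 63.1 to 8.66 TPM, whereas the adrenal cortex, chromaffin cell and adipocyte sums lie close together.

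The complement and coagulation genes fell into separate groups by how they compared between the libraries. Of the 49, 30 were over 2-fold higher in replicate 2, against a background of 4.4% of 14854 nuclear protein-coding genes. Just 1 member, Cd55, was over 2-fold higher in replicate 1, where the background was 5.08%. Near equality held for 15 members, against 83.2% of the background genes, and 3 (C6, F3 and C5ar1) lay between the limits. The summed level of all 49 was 321.5 TPM in replicate 1 and 1318 TPM in replicate 2, a mean of 819.8 ± 704.6 TPM (SD, n = 2). Without C4a, which is not typed as protein-coding, the members held 0.106% and 0.465% of what all nuclear protein-coding genes held together. By kallisto, a second quantification, 31 members were over 2-fold higher in replicate 2 (background 4.47%), 1 was over 2-fold higher in replicate 1 (background 5.24%) and 14 were near equal (background 82.1%).

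Members are compared here by the textbook source of the protein. The members and lists were chosen with earlier results of these data known, so the comparison is a description. The 38 liver-made members summed to 249.3 TPM in replicate 1 and 1246 TPM in replicate 2, with a median fold of 16.2, and 29 of them were over 2-fold higher in replicate 2. The rest were 8 near-equal members and C6. The 11 members made elsewhere summed to 72.2 and 71.5 TPM, 71.9 ± 0.474 TPM (SD, n = 2), with a median fold of 0.808. Their share of the summed member TPM was 22.5% in replicate 1 and 5.43% in replicate 2. The median log2 difference was 4.02 for the liver-made members, -0.31 for those made elsewhere and -0.08 for all 14854 background genes. The hepatocyte markers moved with the liver-made members. They included Alb, serum albumin, at 172.5 and 3072 TPM, the plasma glycoprotein Ahsg at 59.4 and 970.4 TPM, and the iron carrier Trf at 65.8 and 934.1 TPM. None of the 18 markers was at 0 in either library, their folds ran from 6.88 to 24.2, and 15 of them were over 10-fold. The part of liver transcripts in the folds of the members was not tested. In these bulk libraries, fewer cells of a type and less RNA per cell cannot be told apart.

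**Figure D2:**
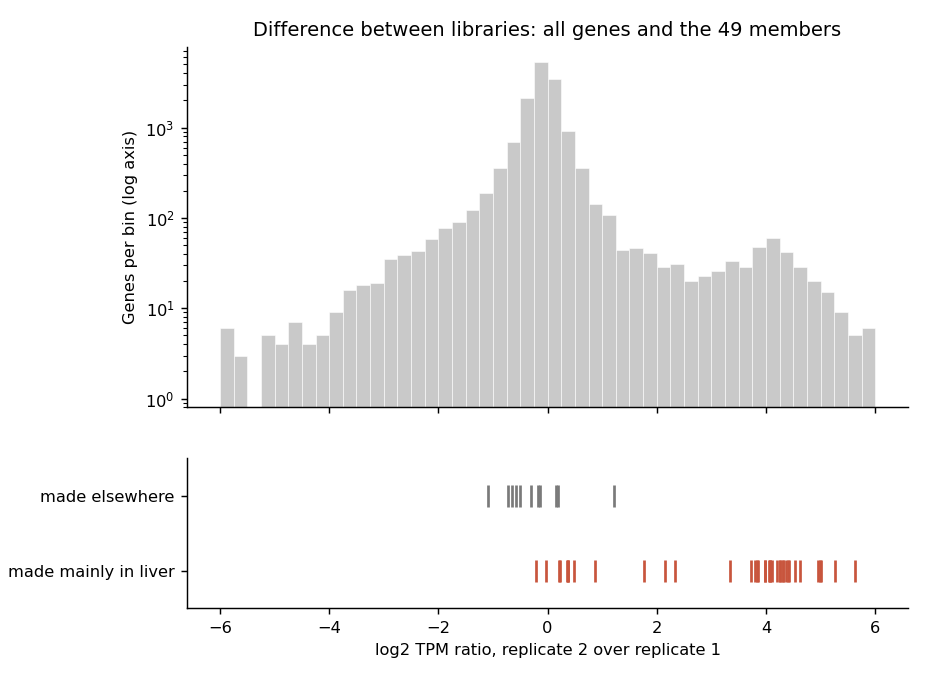
Upper panel, number of nuclear protein-coding genes (log axis) by log2 TPM ratio of replicate 2 over replicate 1, with ratios beyond the limits of the axis placed in the outermost bins. Lower panel, each of the 49 members as a tick, with those made mainly in liver apart from those made elsewhere; the liver-made ticks have a median of 4.02 and the others a median of -0.31.

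Within the 30 higher members, 26 were over 10-fold higher in replicate 2, and all 26 are liver-made. The background for this limit was 1.92%, or 285 of 14854 genes, and the 26 members are among those 285. Their summed level went from 45.7 to 857.9 TPM, a ratio of 18.8, and 15 of them lay under 1 TPM in replicate 1. Their folds ran from 10.2 to 49.3 with a median of 19.2 and were widest apart among genes with few reads. The 8 with at least 100 counts in replicate 1 spanned 16.6 to 21.4, whereas the 12 with fewer than 25 counts there spanned the whole range of 10.2 to 49.3. The counting intervals of 16 of the 26 held the median fold of 19.2. Those of F7, F12, Kng1, Plg, Fgb, Fga, Cpb2, C8a, Mbl1 and C8b did not.

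**Figure D3:**
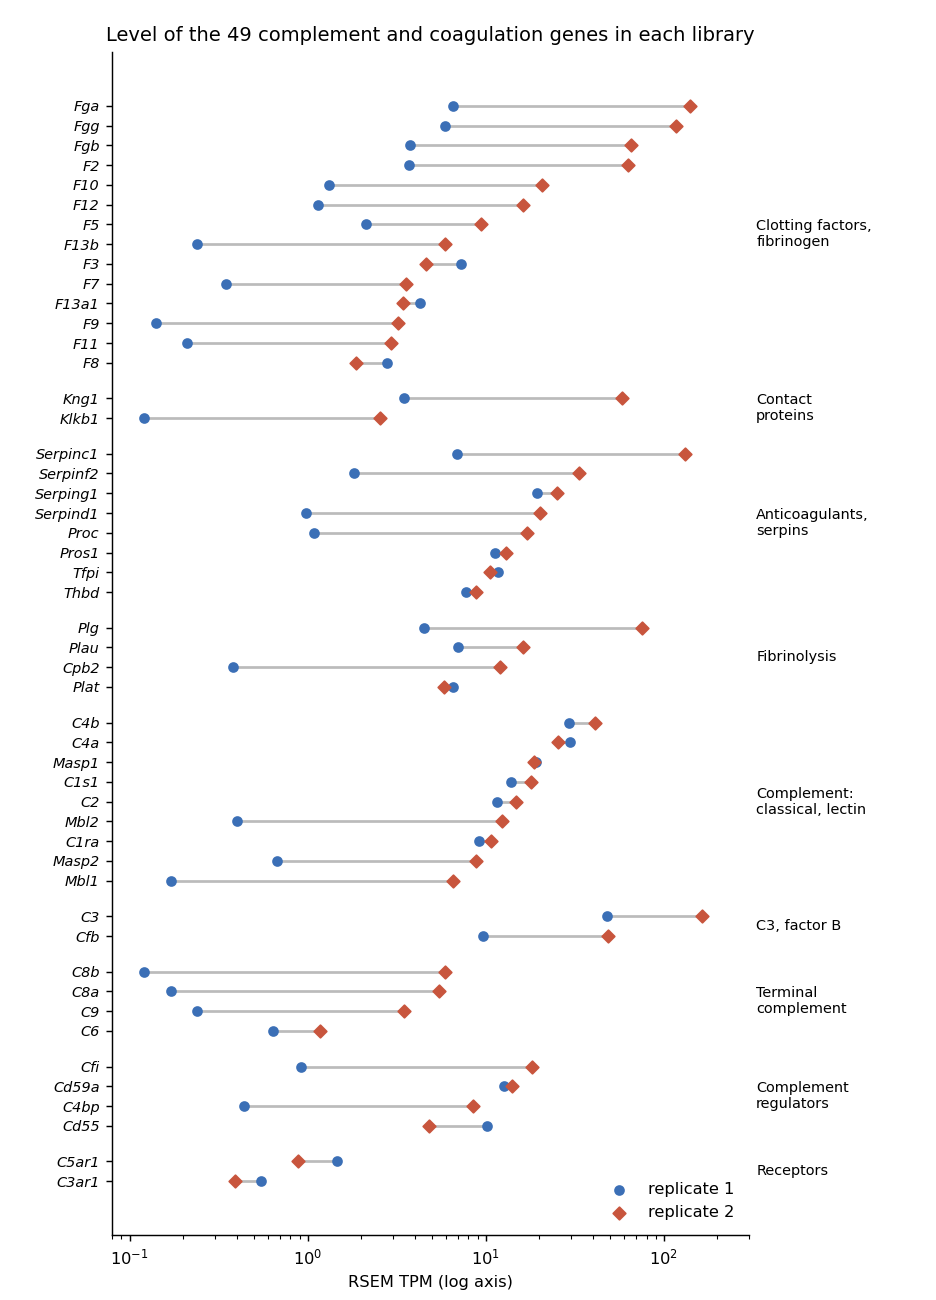
RSEM TPM of the 49 members in replicate 1 (circles) and replicate 2 (diamonds), on a log axis, ordered by role and joined by a line for each gene. Long lines mark most clotting factors, fibrinogen and the terminal complement genes, and the shortest mark genes such as Masp1 at 19.03 and 18.77 TPM and Tfpi at 11.8 and 10.6 TPM.

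Sequences upstream of the start are shown for 4 members over 10-fold apart, which lie in the fibrinogen and C8 clusters and were all higher in replicate 2. Fga, which lies between Fgg and Fgb, is not printed. Each run is the 250 bases before the annotated start, 5′ to 3′ on the strand of the gene, from RefSeq on GRCm38.p6. Capitals mark the letters GTTAAT or their reverse complement ATTAAC, a core motif of the liver factor HNF1. Fgb (fibrinogen beta chain) lies at chr3:83049864-83050113 on the minus strand, Fgg (fibrinogen gamma chain) at chr3:83007474-83007723 on the plus strand, C8a at chr4:104876399-104876648 on the minus strand and C8b at chr4:104766067-104766316 on the plus strand.
Fgb: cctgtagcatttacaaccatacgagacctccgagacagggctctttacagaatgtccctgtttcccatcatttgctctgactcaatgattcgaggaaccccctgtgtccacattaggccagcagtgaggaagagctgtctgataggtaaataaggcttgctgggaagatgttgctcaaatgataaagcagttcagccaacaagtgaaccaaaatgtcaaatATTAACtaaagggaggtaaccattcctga
Fgg: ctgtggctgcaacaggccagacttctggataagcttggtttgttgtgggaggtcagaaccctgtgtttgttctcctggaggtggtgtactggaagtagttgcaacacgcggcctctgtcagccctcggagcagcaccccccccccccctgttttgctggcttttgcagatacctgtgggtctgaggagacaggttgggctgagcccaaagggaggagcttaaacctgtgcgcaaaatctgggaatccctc
C8a: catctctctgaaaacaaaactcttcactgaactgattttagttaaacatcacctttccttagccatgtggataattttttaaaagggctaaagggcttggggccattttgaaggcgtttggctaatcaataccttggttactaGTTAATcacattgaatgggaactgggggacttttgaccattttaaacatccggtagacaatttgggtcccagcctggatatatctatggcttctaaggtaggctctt
C8b: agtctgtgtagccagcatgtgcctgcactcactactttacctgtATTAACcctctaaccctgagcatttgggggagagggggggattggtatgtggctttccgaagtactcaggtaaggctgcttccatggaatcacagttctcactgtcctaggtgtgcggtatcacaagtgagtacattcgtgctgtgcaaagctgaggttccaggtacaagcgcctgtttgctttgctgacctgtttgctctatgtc
The motif stood 29 bases before the start in Fgb, 107 in C8a and 206 in C8b, and these letters are not in the Fgg window. In the unprinted Fga window it stood 43 bases before the RefSeq start. That window ends at 83026152, whereas the GENCODE gene starts at 83026076, so the match lies within the GENCODE gene. Over both strands, 6.43% of all 32851 RefSeq promoter windows of this length held the motif. Members were counted by gene, with a match in any window of the gene, so their unit differs from that share. Of the 36 members with an entry, which had 39 windows, 7 held it, 6 of the 22 over 10-fold apart and 1 of the 14 others. A match describes the letters and is no measured site.

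The fibrinogen chains, which polymerise into the clot, were the most abundant of the clotting genes in replicate 2 and among the members far apart between libraries. Fga, the alpha chain, was at 6.53 and 139.7 TPM in replicates 1 and 2, a fold of 21.4 with a counting interval of 19.5 to 23.6. Fgg stood at 5.94 and 117.5 TPM, a fold of 19.8 (interval 17.6 to 22.2). Fgb stood at 3.77 and 65.3 TPM, a fold of 17.3 (interval 15.8 to 19.1). These 3 genes lie side by side on chromosome 3 in mm10, from 83007724 to 83049863, separated by 11026 and 6513 bases. The intervals of Fga and Fgb did not overlap, so the 3 folds were close but not the same within counting error.

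Prothrombin and the further vitamin K-dependent factors F7, F9 and F10 were higher in replicate 2 as well. F2, prothrombin, the precursor of thrombin, was at 3.73 and 62.7 TPM, a fold of 16.8 (interval 14.7 to 19.3). F10, the protease that cuts prothrombin, was at 1.31 and 20.7 TPM, 15.8-fold. F7, which pairs with tissue factor to start coagulation, was at 0.35 and 3.56 TPM, 10.2-fold, with 20 and 223 counts. F7 and F10 are neighbours on chromosome 8, 1498 bases apart. F9, lost in haemophilia B, was at 0.14 and 3.23 TPM, 23.1-fold, on 12 and 303 counts, so that its interval ran from 13.02 to 45.15.

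The contact factors and the transglutaminase subunit F13b had low levels in replicate 1 and folds above 10. F11 was at 0.21 and 2.92 TPM, 13.9-fold, although kallisto put it at 8.07-fold. F12, which starts the contact pathway, was at 1.14 and 16.2 TPM, 14.2-fold. F13b, the carrier subunit of factor XIII, was at 0.24 and 5.91 TPM, 24.6-fold. Klkb1, plasma prekallikrein, was at 0.12 and 2.55 TPM, 21.3-fold. It lies 4657 bases from F11 on chromosome 8. Kng1, the kininogen from which bradykinin is cut, was at 3.49 and 58.0 TPM, 16.6-fold.

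The cofactors F5 and F8 and the factors F13a1 and F3 compared differently. F5, the cofactor of factor X, is grouped here with the liver-made members, and platelets also carry the protein. It was at 2.12 and 9.43 TPM, a fold of 4.45 (interval 4.04 to 4.90). That fold lies below those of the liver-made clotting proteases F2, F7, F9, F10, F11 and F12. The part of platelets in it was not tested. F8, the cofactor lost in haemophilia A and made by endothelium, was near equal at 2.78 and 1.86 TPM, 1.49-fold higher in replicate 1 and 1.605-fold by kallisto. F13a1, the catalytic subunit of factor XIII, known from macrophages and platelets, was near equal at 4.27 and 3.45 TPM. The catalytic and carrier subunits of factor XIII thus differed in how they compared, at folds of 0.808 and 24.6. F3, tissue factor, the membrane protein that starts coagulation, was at 7.26 and 4.64 TPM, 1.57-fold higher in replicate 1.

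Among the 8 anticoagulants and serpins, 4 were over 10-fold higher in replicate 2 and the other 4 were near equal. Serpinc1, antithrombin, the main inhibitor of thrombin, was at 6.90 and 132.1 TPM, 19.1-fold (interval 16.7 to 22.1). Serpind1, heparin cofactor II, was at 0.98 and 20.2 TPM, 20.6-fold. Serpinf2, the inhibitor of plasmin, was at 1.81 and 33.3 TPM, 18.4-fold. Proc, protein C, which inactivates the cofactors once activated, was at 1.08 and 17.0 TPM, 15.8-fold. Its partners did not share that difference. Pros1, protein S, the cofactor of protein C, was at 11.2 and 12.9 TPM, a fold of 1.15. Thbd, thrombomodulin, the endothelial receptor on which protein C is activated, was at 7.72 and 8.80 TPM, a fold of 1.14. Tfpi, the endothelial inhibitor of tissue factor, was at 11.8 and 10.6 TPM, 1.11-fold higher in replicate 1. Serping1, the C1 inhibitor, which blocks C1 and kallikrein, was at 19.5 and 25.1 TPM, a fold of 1.29.

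Of the 4 fibrinolytic genes, 3 were over 2-fold higher in replicate 2 and 1 was near equal. Plg, plasminogen, the precursor of plasmin, was at 4.49 and 75.8 TPM, 16.9-fold (interval 15.2 to 18.7). Cpb2, a carboxypeptidase that slows fibrin breakdown, was at 0.38 and 12.04 TPM, 31.7-fold on 17 and 589 counts. The activators of plasminogen are made elsewhere. Plat, the tissue-type activator of endothelium, was at 6.58 and 5.83 TPM, 1.13-fold higher in replicate 1. Plau, the urokinase-type activator, was at 7.01 and 16.2 TPM, a fold of 2.32 (interval 2.09 to 2.57), and was the sole member made elsewhere to be over 2-fold higher in replicate 2. Its values came from 517 and 1297 counts, and kallisto gave 2.28-fold. Endothelial markers summed to 274.4 and 238.1 TPM, with 0 of 9 over 2-fold apart and folds from 0.612 to 0.953. Platelet markers summed to 12.8 and 9.20 TPM, where 5 of 8 passed the count minimum and none of those was over 2-fold apart. Fibroblast markers summed to 505.2 and 408.6 TPM, with 0 of 6 over 2-fold apart. The part of these marker lists in the values of Plat and Plau was not tested.

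By number, the first components of complement were the largest near-equal set. Of the 9 classical and lectin genes, 6 were within 1.5-fold, against 83.2% of the background genes. Among these 6, C4b was near equal in TPM but 2.10-fold higher in replicate 2 in TMM-scaled counts. C1ra and C1s1, the proteases of the C1 complex, which lie 6901 bases apart on chromosome 6, were at 9.16 and 10.7 TPM and at 13.8 and 18.0 TPM. C2, the protease of the classical C3 convertase, was at 11.5 and 14.7 TPM. C4b, whose product anchors that convertase, was at 29.3 and 40.9 TPM, and C4a, its close copy, at 29.6 and 25.5 TPM. Masp1, the gene of the lectin proteases MASP-1 and MASP-3, was at 19.03 and 18.77 TPM, the smallest difference among all 49 members. The remaining lectin genes were far apart. Mbl2 and Mbl1, the mannose-binding lectins that recognise microbial sugars, were at 0.40 and 12.4 TPM (30.9-fold) and at 0.17 and 6.55 TPM (38.5-fold, on 8 and 256 counts). Masp2, the lectin protease that cuts C4 and C2, was at 0.67 and 8.85 TPM, 13.2-fold. By gene totals, the lectin genes therefore held both the member with the smallest difference and some with the largest. That near equality of Masp1 is of the summed gene and did not extend to each of its transcripts. Masp1-201 was at 0.29 and 2.35 TPM, 8.10-fold higher in replicate 2 and 4.01-fold by kallisto.

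C3 and factor B lay between those sets. C3, on which all arms meet, was the most abundant member in both libraries, at 48.1 and 162.8 TPM, a fold of 3.39 (interval 3.30 to 3.48). Cfb, factor B, the protease of the alternative arm, was at 9.65 and 48.5 TPM, a fold of 5.03 (interval 4.61 to 5.50). F5, C3, Cfb and Plau were the 4 members over 2-fold but under 10-fold higher in replicate 2, at 2.12, 48.1, 9.65 and 7.01 TPM in replicate 1. Cfb and C2 are adjacent on chromosome 17, 85 bases apart on the same strand (Cfb 34856374 to 34862518, C2 34862604 to 34898265), with folds of 5.03 and 1.28.

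The terminal genes had the largest fold of all, on few reads. C8b, a chain of C8, was at 0.12 and 5.92 TPM, 49.3-fold, on 8 and 422 counts. The interval ran from 24.8 to 115.0, and kallisto gave 35.6-fold. The deposited credibility bounds of its TPM were 0.087 to 0.357 in replicate 1 and 5.26 to 6.55 in replicate 2. C8a, another chain of C8, was at 0.17 and 5.47 TPM, 32.2-fold, and 13.8-fold by kallisto. C9, which forms the wall of the pore, was at 0.24 and 3.48 TPM, 14.5-fold on 8 and 180 counts, and 45.0-fold by kallisto. The quantifications placed all 3 over 10-fold without giving the same order. C6, which joins the complex before C8, was at 0.64 and 1.17 TPM, 1.83-fold, and 2.07-fold by kallisto.

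The regulators went in both directions. Cfi, factor I, the plasma protease that inactivates C3b and C4b, was at 0.92 and 18.3 TPM, 19.8-fold. C4bp, the plasma cofactor of factor I, was at 0.44 and 8.44 TPM, 19.2-fold. Cd59a, a membrane inhibitor of the pore, was near equal at 12.6 and 14.0 TPM. Cd55, decay-accelerating factor, a membrane protein that dissociates convertases, was at 10.2 and 4.81 TPM, 2.12-fold higher in replicate 1, on 882.6 and 441.7 expected counts, and 2.03-fold by kallisto. On the log2(TPM + 1) scale its difference was -0.95, short of 2-fold. The receptors for complement fragments were the least abundant members in replicate 2. C5ar1 was at 1.46 and 0.88 TPM on 71 and 66 counts, and was near equal, 1.11-fold apart, in TMM-scaled counts. C3ar1 was at 0.55 and 0.39 TPM on 76 and 58 counts. Both receptors are known from myeloid cells. Macrophage markers summed to 95.2 and 56.5 TPM, with 6 of 8 near equal and 1 over 2-fold higher in replicate 1. That 1 was Lyz2, at 52.0 and 17.9 TPM. The 9 lymphocyte markers had a median fold of 0.131. The part of either list in the values of Cd55 and of the receptors was not tested.

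**Figure D4:**
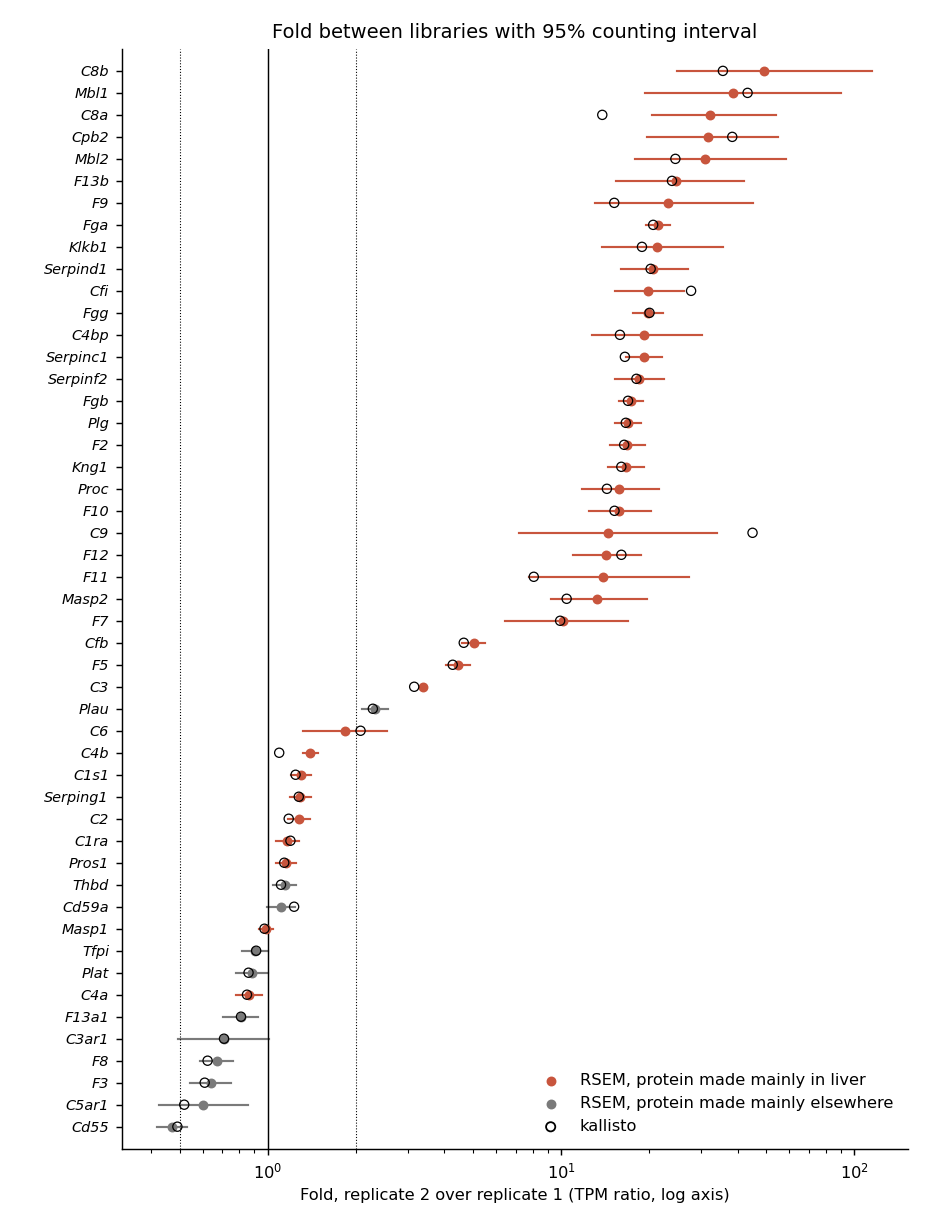
Fold of each member, replicate 2 over replicate 1 on a log axis, with 95% counting intervals as bars, filled points for RSEM values coloured by source and open circles for kallisto. Dotted lines mark 2-fold in each direction; 30 filled points lie beyond the right one, from Plau at 2.32 to C8b at 49.3, and Cd55 lies beyond the left one.

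Near equality of a gene did not always extend to its transcripts. The 15 near-equal genes had 39 transcripts with at least 20 summed counts. Of these, 4 were over 2-fold apart in the same direction by both RSEM and kallisto, against a background of 7.14% of 41905 transcripts of near-equal nuclear protein-coding genes. They were Masp1-201, C4b-201, Pros1-202 and Tfpi-206. With so few transcripts, this count is close to the background share and describes these 4.

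Masp1 was the clearest case. The gene, at chr16:23449417-23520815 on the minus strand, yields different proteases by the choice of its last exons. As background, MASP-1 has its protease domain on several exons and MASP-3 on a single final exon. The annotated transcript Masp1-201, of 704 codons, enters 6 further exons after the branch. Masp1-203, of 733 codons, enters 1. The runs below show this branch, because it separates the transcript that differed from the one that did not. Lower case is the last 30 bases of the shared exon (chr16:23474874-23474903), and capitals are the first 30 bases of the next exon (chr16:23465136-23465165 for Masp1-201, chr16:23470701-23470730 for Masp1-203), 5′ to 3′ from GRCm38.
Masp1-201: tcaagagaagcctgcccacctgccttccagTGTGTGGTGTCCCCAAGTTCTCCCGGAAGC
Masp1-203: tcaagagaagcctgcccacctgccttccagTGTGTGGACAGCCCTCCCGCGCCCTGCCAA
Masp1-203 was at 17.9 and 15.2 TPM and carried 94.2% and 81.0% of the gene in replicates 1 and 2. Masp1-201 was at 0.29 and 2.35 TPM, 8.10-fold higher in replicate 2 (interval 6.08 to 11.2), on 49.5 and 439.1 expected counts. Kallisto gave 1.04 and 4.18 TPM, 4.01-fold. The major form was thus slightly lower and the minor form higher in replicate 2, and their sum hardly differed. A further coding transcript, Masp1-204, of 385 codons, was at 0.45 and 0.65 TPM.

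C4b showed a similar division. The gene lies at chr17:34728380-34743882 on the minus strand. C4b-201 is the full coding transcript, with 41 exons and 1738 codons. C4b-203 is a short transcript of 749 bases near the 3′ end of the gene that keeps an intron of 284 bases and has no coding sequence in the annotation. The runs below show where they part, since most of the gene's TPM was assigned to the second. Lower case is the last 30 shared bases (chr17:34729182-34729211), and capitals are the next 30 bases, from the following exon in C4b-201 (chr17:34728868-34728897) and from the intron in C4b-203 (chr17:34729152-34729181), 5′ to 3′ from GRCm38.
C4b-201: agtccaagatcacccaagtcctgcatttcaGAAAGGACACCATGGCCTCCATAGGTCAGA
C4b-203: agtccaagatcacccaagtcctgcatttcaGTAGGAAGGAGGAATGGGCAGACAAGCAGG
C4b-203 took 78.3% of the gene's TPM in replicate 1 and 61.2% in replicate 2, at 22.9 and 25.02 TPM. C4b-201 was at 6.36 and 15.2 TPM, 2.39-fold higher in replicate 2 (interval 2.23 to 2.56), and 2.37-fold by kallisto. It held 1103 and 2857 expected counts. The class of this gene depended on the unit, since it was 1.398-fold apart in TPM and 2.10-fold apart in TMM-scaled counts. C4b and C4a share sequence, with 34.6% of the 50-base runs of C4b also found in C4a. Together they held 58.9 and 66.4 TPM on 2303 and 4218 counts. C4a, typed as a processed transcript, was led by the retained-intron transcripts C4a-206 at 15.9 and 13.5 TPM and C4a-209 at 8.42 and 8.44 TPM.

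The minor transcripts of Pros1 and Tfpi rested on few counts. Pros1-202, a non-coding transcript, was at 0.32 and 1.29 TPM on 7.29 and 31.9 expected counts. Tfpi-206 was at 0.43 and 0.18 TPM. Cd55, the member higher in replicate 1, differed in both of its main transcripts. The coding Cd55-201 was at 4.20 and 2.42 TPM and the retained-intron Cd55-205 at 5.35 and 2.08 TPM, so that the leading transcript was Cd55-205 in replicate 1 and Cd55-201 in replicate 2.

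**Figure D5:**
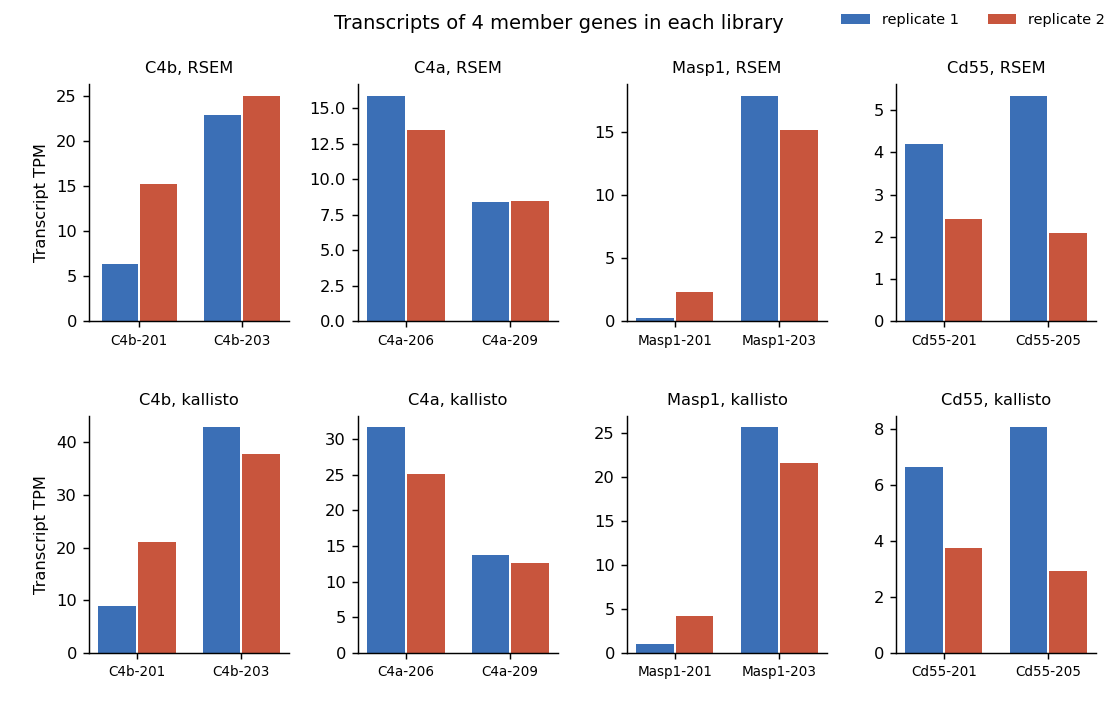
TPM of 2 transcripts each of C4b, C4a, Masp1 and Cd55 in replicate 1 and replicate 2, by RSEM (upper row) and kallisto (lower row), with a separate linear axis from 0 in each panel. C4b-201 and Masp1-201 are higher in replicate 2 in both rows, whereas the retained-intron C4b-203 and the major Masp1-203 differ little.

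Close copies limit some of these values. Of the 49 members, 8 shared over 10% of their 50-base runs with another gene, 41 shared less and 33 shared none. Cfb shared 73.0% and C2 38.7% with Gm20547, an annotated gene spanning both, which had 0 counts in both libraries. C1ra shared 50.8%, mostly with C1rb, which was at 0.82 and 1.63 TPM. C1s1 shared 21.8% with C1s2, at 0.71 and 0.77 TPM. Klkb1 shared 42.7%, nearly all with Gm45753, which was at 0.06 and 1.76 TPM and so moved in the same direction as Klkb1 itself. Kng1 shared 17.2% with Kng2, which was at 7.53 and 17.4 TPM. How reads were divided within these pairs is uncertain.

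Genes of the same pathways outside the list were also measured. Of 28 further complement genes, 27 passed the count minimum. Of these, 8 were over 2-fold higher in replicate 2, against the background of 4.4%, 2 were over 2-fold higher in replicate 1 (background 5.08%), and 12 were near equal (background 83.2%). Their median fold was 1.08, against 13.2 for the 49 members. Cfd, factor D, the protease that cuts factor B and a product of fat cells, was the most abundant at 199.8 and 151.5 TPM. Clu, clusterin, an inhibitor of the pore, was at 55.1 and 64.2 TPM. Cr1l, a membrane regulator of convertases, was at 20.8 and 19.2 TPM. Adipocyte markers, beside Cfd, summed to 2805 and 2850 TPM.

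Several plasma proteins of complement were over 2-fold higher in replicate 2. Vtn, vitronectin, was at 6.36 and 76.4 TPM. Hc, which encodes C5, was at 1.07 and 12.4 TPM, an 11.6-fold difference. C8g, the gamma chain of C8, was at 1.18 and 9.86 TPM, 8.36-fold. Colec11, a collectin, was at 0.60 and 2.07 TPM. In the opposite direction, Cr2, the complement receptor of B cells, was at 1.89 and 0.41 TPM. Itgb2, the beta chain of the leukocyte integrins, was at 4.27 and 1.56 TPM. The lymphocyte list, at 63.1 and 8.66 TPM, moved with this pair, and its part was not tested. Among the terminal genes, C7, named after its values were seen, was at 2.02 and 1.67 TPM, a fold of 0.827. The macrophage receptor Vsig4, likewise named afterwards, was at 0.09 and 0.86 TPM on 3 and 41 counts.

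Of 30 further coagulation genes, 27 passed the count minimum, 11 were over 2-fold higher in replicate 2 (background 4.4%), 1 was over 2-fold higher in replicate 1 (background 5.08%) and 11 were near equal (background 83.2%). Their median fold was 1.30. Pzp, a broad protease inhibitor, was at 5.84 and 82.6 TPM, and A2m, a related inhibitor, at 0.26 and 2.16 TPM. Hrg, histidine-rich glycoprotein, was at 2.66 and 41.2 TPM. Proz, protein Z, was at 0.27 and 7.67 TPM, and Serpina10, the inhibitor for which it is cofactor, at 0.76 and 4.58 TPM. The plasma proteases Habp2 and Hgfac were at 0.23 and 5.16 TPM and at 0.98 and 9.75 TPM. Fgl1, a fibrinogen-like protein, was at 0.69 and 8.23 TPM, and Tfpi2, an inhibitor of plasmin, at 1.45 and 2.91 TPM, a fold of 2.01 that kallisto put at 1.28.

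Of the 8 further coagulation genes whose mean reached 20 TPM, all but Vkorc1, Pzp and Hrg were within 1.5-fold. Anxa2 and S100a10, which together bind plasminogen at the cell surface, were at 80.4 and 90.3 TPM and at 51.7 and 44.9 TPM. Mcfd2 and Lman1, the receptor that carries factors V and VIII out of the endoplasmic reticulum, were at 48.7 and 45.1 TPM and at 29.6 and 32.9 TPM. F2r, the thrombin receptor PAR1, was at 24.8 and 26.7 TPM. Vkorc1, which recycles vitamin K, was at 16.2 and 25.04 TPM, a fold of 1.55.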

How the data were processed

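The authors deposited expected counts, TPM and posterior mean TPM for genes, and the first 2 for transcripts, on mm10 with GENCODE M21; the columns are those of RSEM, per the file headers. The authors also deposited a lower and an upper credibility bound for each gene's TPM. Per the file headers these bounds are signal values which, unlike TPM itself, have no set sum. A second set of estimated counts and TPM per transcript deposited by the authors has the columns of kallisto, per the file headers, and was summed here to genes. The aligner and the versions of these tools were not given in the sources used. How CAST alleles fared on the mm10 reference was not examined.

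Folds were RSEM TPM ratios of replicate 2 over replicate 1 for genes with at least 20 summed expected counts. A library at 0 counts would be set to 3 counts, but no member was at 0. Called genes were over 2-fold apart and near-equal genes within 1.5-fold. The background was nuclear protein-coding genes under the same filter (14854). Intervals are 95% exact (Clopper-Pearson) binomial intervals on rounded counts and cover counting error only. The libraries differed beyond counting noise (chi-square 53.3 per degree of freedom over genes) and were kept as 2 samples. The fold step was tested on simulated counts that held counting noise alone, without the further spread between these libraries.

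The text names members whose mean reached 1 TPM, other pathway genes whose mean reached 20 TPM or, if over 2-fold apart, 1 TPM, and transcripts whose gene had at least 5 TPM and a leading share under 70% or a leading transcript that differed. C6 and C3ar1, below the level limit, and the 4 transcripts that differed within near-equal genes were named after their values were seen. A few pathway genes that this rule would name are not reported here. The members and lists were chosen with earlier results of these data known.

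Sequence sharing was counted over 50-base runs of GENCODE transcripts. The promoter windows came from RefSeq on GRCm38.p6, and 36 members matched. There, 4 motifs were searched on both strands. Alternatives were kallisto, other filters, TPM rescaled over nuclear protein-coding genes or by spike-ins, TMM (edgeR 4.0.16 in R 4.3.3), median-of-ratios scaling, log2(TPM + 1), posterior mean TPM and single replicates. Other steps used matplotlib 3.10.9, scipy 1.17.1, numpy 2.4.6 and pandas 2.3.3 in Python 3.11.15.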

Additional observations from a re-analysis of the deposited data

How the results depend on the processing

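All 30 members over 2-fold higher in replicate 2 stayed so under the 7 other scales or quantifications, and their number was 30 or 31 in every alternative run. The number within 1.5-fold was 14 to 18, and 13 of the 15 near-equal members were so in all of them. The exceptions were F8, 1.605-fold apart by kallisto, and C4b, 2.10-fold higher in replicate 2 with TMM or median-of-ratios counts. C4a and Masp1 changed direction between settings, and the other 47 did not. With log2(TPM + 1), which shrinks low genes by construction, no member was over 2-fold higher in replicate 1 (0 against 1, Cd55 at -0.95), and the median of the liver-made members was 2.52 in place of 4.02. The other settings gave medians of 3.84 to 4.14 for liver-made members and -0.39 to -0.11 for those made elsewhere. The summed level averaged 2958 TPM when rescaled over nuclear protein-coding genes, which leaves out the other RNAs, against 819.8 TPM. Leaving out a replicate left 321.5 or 1318 TPM. Of the 26 members over 10-fold, 24 were so by kallisto, with F7 at 9.93 and F11 at 8.07. Between RSEM and kallisto, mean transcript shares moved from 32.2% to 3.03% for Tfpi-207, from 35.0% to 66.1% for Tfpi-201, from 44.5% to 18.6% for Cfb-206, from 53.2% to 63.2% for C4a-206 and from 47.9% to 39.6% for Cd55-205; the cause was not tested. No paired analysis was possible because there is 1 group. Depth limits the 12 members with fewer than 25 counts in replicate 1, whose order by fold was not resolved.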

Other observations

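Some member genes had a leading transcript that differed between quantifications or libraries. Of 33 members with a mean of at least 5 TPM, 25 had the same leading transcript in both libraries by RSEM and kallisto, and the others were C1s1, Cd55, Cfb, F10, Proc, Serpind1, Serpinf2 and Tfpi. C1s1-204 carried 51.0% and 59.3% of the gene by RSEM in replicates 1 and 2, whereas kallisto gave C1s1-203 81.2% and 85.3%. Both transcripts encode 694 codons. Serpind1-202 held all 63 counts of its gene in replicate 1 by RSEM, and Serpind1-201 led in replicate 2 with 55.7%, both with 478 codons. Serpinf2-201 carried 85.1% in replicate 1 and 31.0% in replicate 2 by RSEM, whereas kallisto gave Serpinf2-202 70.3% and 68.4%, both with 491 codons. F10-205 carried 55.7% and 65.6% by RSEM, whereas kallisto led with F10-201, of 493 codons, at 49.4% and 43.9%. Cfb-206 carried 41.9% and 47.2% by RSEM, whereas kallisto led with Cfb-201 at 55.9% in replicate 1 and Cfb-202 at 30.6% in replicate 2. Proc-206 carried 89.8% and 89.9% by RSEM, whereas kallisto divided the gene between Proc-201 at 50.7% and 43.3% and Proc-207 at 39.0% and 44.9%. Serpinc1, antithrombin, was led by Serpinc1-205 in all cases, with 53.6% and 44.5% by RSEM.

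Other letters searched upstream gave these counts, by window for the share of all windows and by gene for the members. TTGCNNAA, a C/EBP motif, was in 9.56% of all windows and in 8 of 36 members, 6 of them over 10-fold apart. CCAAT was in 33.8% of windows and in 8 of 36 members. CAAAGTCCA, an HNF4 motif, was in 0.384% of windows and in 0 of 36 members.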
